A study of Mus musculus with 6 samples.

Results

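The genes described here are 45 genes of DNA replication and deoxynucleotide synthesis, read in 6 samples of sorted mouse bone marrow progenitors. They were listed by name, and every probe set annotated to exactly 1 of them was taken, which gave 48 probe sets out of 34760 on the arrays. All 45 had at least 1 probe set of their own, and they are 45 of the 19937 genes tested. No filter on low values was applied, so none of the 45 was left out. The cells were preGMs, myeloid progenitors that come before the granulocyte-macrophage progenitor, sorted from Kit-enriched marrow by a Lin-Sca1-Kit+ gate without CD150, CD41, FcγRII or endoglin. Their RNA was amplified before hybridisation. One group was 3 female C57BL/6 mice with both Cebpa alleles floxed and no Cre, labelled Cebpa flox/flox, and the other was 3 such mice that also carried Mx1Cre. Mx1Cre is a Cre recombinase under the interferon-inducible Mx1 promoter, which is not restricted to blood progenitors, and since the controls lack Cre, its presence and the deletion cannot be told apart. All 6 mice, controls included, had received pIC (polyinosinic-polycytidylic acid, an interferon inducer) and were taken on day 18. The labels give no age. The comparison asks how preGMs differ once Cebpa, which encodes the myeloid transcription factor C/EBPα, has been deleted.

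Replication starts when the origin recognition complex, Cdc6 and Cdt1 load the ring-shaped MCM helicase onto DNA in G1 phase. In S phase Cdc45 and the GINS complex switch the helicase on, polymerases copy each strand, and a sliding clamp with its loader keeps them on the template. Ribonucleotide reductase, thymidylate synthase and thymidine kinase supply the building blocks. Many of these genes are switched on together before S phase by E2F transcription factors, and among blood cells proliferating progenitors express them strongly. All values below are log2 expression values of a probe set, normalised by RMA (robust multi-array average). A difference is the mean of the arrays labelled Mx1Cre minus that of the arrays labelled flox/flox, and its standard error (SE) is limma's moderated one. A gene is called at a Benjamini-Hochberg adjusted p under 0.05 over all genes.

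Cebpa itself went against the labels. It read 6.93, 6.71 and 6.85 in the arrays labelled flox/flox and 8.71, 9.31 and 8.98 in those labelled Mx1Cre, and the groups did not overlap. Whether its probes lie in the deleted part was not examined, and each direction given here follows the deposited labels and would turn if they were exchanged. Among the sort antigens, Kit read 10.36 to 10.69 on the 6 arrays, and Kit, Slamf1, Itga2b and Eng were not called, while Fcgr2b was (0.43 ± 0.10 log2 units, SE, limma adjusted p = 0.0410). Ly6a, which encodes Sca1, was not measured among the genes tested.

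One array stood apart for the genes described here. Of the 45 genes, 42 had their lowest value on flox/flox replicate 1, whereas over all 19937 genes that array was the lowest for 17.3%. On the median gene it lay 0.37 log2 units under the mean of flox/flox replicates 2 and 3. The 3 exceptions were Pcna, Rfc2 and Tk1. The spread within the flox/flox group was larger than within the Mx1Cre group for 39 of the 45 genes, against 47.0% of all genes. Differences are therefore given with and without that array.

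The replication and nucleotide genes tended to be higher in the arrays labelled Mx1Cre. The difference was above 0 for 43 of 45 genes, against 9294 of all 19937 genes. The median difference was 0.39 log2 units, against -0.01 over all genes. At the call threshold 12 of the 45 rose (26.7%) and 0 fell (0 also at an unadjusted p under 0.05, limma), where 2.63% of all genes rose, 2.28% fell and 4.91% were called in either direction. The values did not overlap between the groups for 32 of the 45 (71.1%), each with all 3 Mx1Cre arrays above all 3 flox/flox arrays. Over all genes that held for 10.5%, and for 21.6% in either direction. An unadjusted p under 0.05 with a higher Mx1Cre mean was reached by 32 of 45 genes and by 8.32% of all genes. In RNA from a sorted population, fewer cells of a type and less RNA per cell cannot be told apart, and the same holds for the share of cells in S phase.

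**Figure D1:**
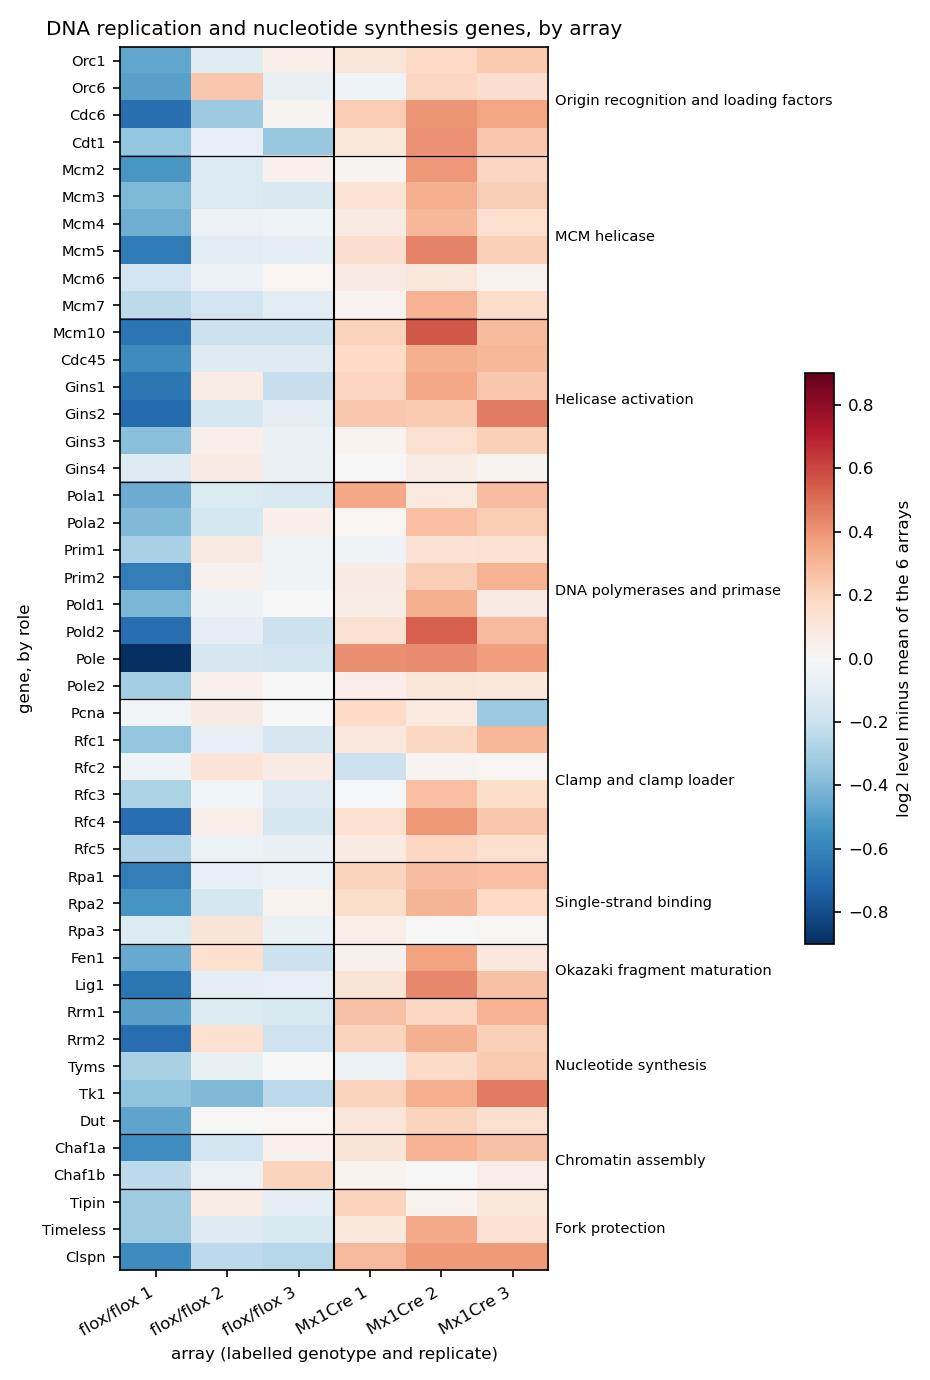
Each row is 1 of the 45 genes, grouped by role, and each column 1 array. Colour gives the log2 level minus that gene's mean over the 6 arrays, from blue (low) to red (high). The column of flox/flox replicate 1 is the lowest for 42 of the 45 genes, and Pcna and Rfc2 do not follow the other rows.

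The count of called genes depended on single arrays. Leaving out flox/flox replicate 1 or Mx1Cre replicate 2 left 3 called genes each, and leaving out Mx1Cre replicate 3 left 2. The count was 5 when flox/flox replicate 3 was dropped and 6 when Mx1Cre replicate 1 was, where 1.61% and 2.28% of all genes rose. With all 6 arrays 2.63% of all genes rose, so calls over all genes were also fewer in these settings. Without flox/flox replicate 1 the 3 called genes were Pole, Clspn and Tk1, where 1.49% of all genes rose. The median difference of the 45 genes was then 0.27 log2 units. Of the 45 differences 41 were above 0, against 9684 of all 19937 genes. All 3 Mx1Cre values lay above both remaining flox/flox values for 32 of 45 genes, against 14.2% of all genes. Leaving out an array cannot lower that count, so it is no check on flox/flox replicate 1.

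The sequences before the start of these genes were set beside the data because the genes moved together and E2F sites are a known feature of replication promoters. Windows of 300 bases, 250 before and 50 after the transcript start, were available from RefSeq (GRCm38.p6) for 37 of the 45 genes. An E2F-type motif was searched on both strands as TTTCCCGC, TTTCGCGC, TTTGGCGC or TTTGCCGC. The reverse complements of the spellings can overlap one another, and overlapping matches were counted separately. At least 1 match lay in a window of 14 of 37 genes (37.8%), against 543 of 15613 tested genes with a window (3.48%). The windows of the 45 genes were also richer in CG pairs, with a median of 22 per window against 15, and the part of base composition in the motif share was not tested. Capitals mark the motif in the following upstream stretches of 2 called genes, Cdc6 and Pola1, and of the MCM gene with the largest difference, Mcm5. All are written 5′ to 3′ on the gene's strand.
Cdc6, chr11:98907901-98908150, plus strand: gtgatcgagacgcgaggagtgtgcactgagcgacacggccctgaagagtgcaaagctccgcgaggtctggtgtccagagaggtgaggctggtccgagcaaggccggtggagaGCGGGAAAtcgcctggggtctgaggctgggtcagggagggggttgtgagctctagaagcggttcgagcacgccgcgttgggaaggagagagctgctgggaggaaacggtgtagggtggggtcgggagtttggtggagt
Pola1, chrX:93632156-93632405, minus strand: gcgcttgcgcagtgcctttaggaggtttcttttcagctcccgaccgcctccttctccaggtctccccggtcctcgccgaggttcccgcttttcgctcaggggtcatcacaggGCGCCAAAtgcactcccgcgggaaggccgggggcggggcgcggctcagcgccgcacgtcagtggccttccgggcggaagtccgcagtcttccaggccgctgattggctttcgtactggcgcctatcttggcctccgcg
Mcm5, chr8:75109259-75109508, plus strand: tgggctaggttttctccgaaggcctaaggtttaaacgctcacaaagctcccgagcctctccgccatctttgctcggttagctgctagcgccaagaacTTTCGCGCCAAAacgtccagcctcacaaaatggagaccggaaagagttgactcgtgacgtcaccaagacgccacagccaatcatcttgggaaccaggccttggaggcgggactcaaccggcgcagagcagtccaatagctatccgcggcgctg

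In Cdc6 and Pola1 the match began at position -138 from the transcript start and was the reverse complement of TTTCCCGC and of TTTGGCGC. In Mcm5 2 matches overlapped, from positions -153 and -149. In 3 other called genes the motif lay just after the start, shown here as 30 bases around it.
Cdt1, chr8:122568035-122568064, plus strand: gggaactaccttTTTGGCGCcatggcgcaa
Mcm3, chr1:20820266-20820295, minus strand: tgGCGGGAAAacttgggaagtTTTGGCGCc
Clspn, chr4:126556990-126557019, plus strand: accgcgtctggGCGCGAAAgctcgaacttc

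Of the genes described, the 14 with a match had a median difference of 0.40 log2 units and the 23 without one 0.39. The called genes were 5 of 14 (35.7%) with a match and 5 of 23 (21.7%) without, and the difference between these shares was not tested. Among tested genes outside the list, 25 of 529 with a match rose (4.73%) and 394 of 15047 without one (2.62%), with medians of 0.03 and -0.01 log2 units. A match is a run of letters and not a shown binding site. The CCAAT sequence, a common promoter element, was found for 62.2% of the 37 genes and 41.7% of tested genes, and for 15 of 17 mitosis genes (88.2%).

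**Figure D2:**
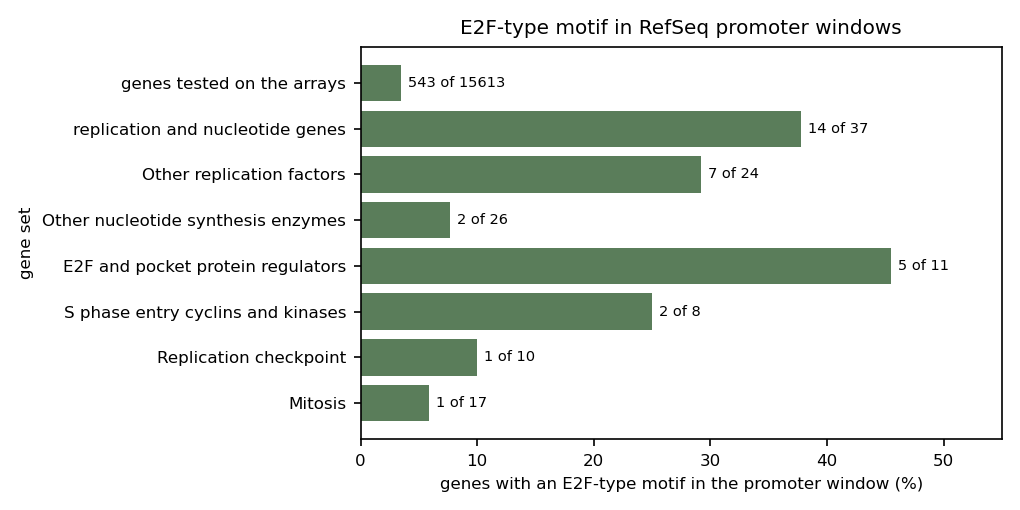
Bars give the percentage of genes in each set whose 300-base RefSeq window held at least 1 E2F-type motif, with the number of genes beside the bar. The replication and nucleotide genes stand at 37.8% and all genes tested on the arrays at 3.48%.

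Among the 4 genes of origin recognition and loading, Cdc6 and Cdt1 rose and Orc1 and Orc6 did not pass. Cdc6, the ATPase that works with the origin complex to load MCM rings, read 7.77, 8.11 and 8.47 in flox/flox and 8.67, 8.84 and 8.79 in Mx1Cre. It was 1.57-fold higher in Mx1Cre (0.65 ± 0.15 log2 units, SE, limma adjusted p = 0.0394), and the groups did not overlap. Cdt1, its loading partner and the target of the inhibitor geminin, read 6.66, 6.94 and 6.67 against 7.12, 7.42 and 7.26. The difference was 0.51 ± 0.11 log2 units (SE, limma adjusted p = 0.0316), with no overlap and with flox/flox replicates 1 and 3 almost equal. Without flox/flox replicate 1 these differences were 0.48 and 0.46 (limma adjusted p 0.0970 and 0.115, spanning across settings 0.0124 to 0.206 and 0.0117 to 0.158). Orc1, the largest subunit of the origin complex, differed by 0.35 log2 units and Orc6 by 0.21. Without that array they differed by 0.20 and 0.015. The Orc6 groups overlapped, as flox/flox replicate 2 at 10.51 was the highest of the 6.

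All 6 subunits of the MCM2-7 helicase had a difference above 0, and 1 of them rose. Mcm3 read 9.38, 9.66 and 9.65 in flox/flox and 9.91, 10.11 and 10.01 in Mx1Cre, every Mx1Cre value being the higher. It was 1.36-fold higher in Mx1Cre (0.45 ± 0.11 log2 units, SE, limma adjusted p = 0.0395), and 0.36 log2 units higher without flox/flox replicate 1 (limma adjusted p = 0.132, spanning 0.0203 to 0.168 across settings). Mcm5 had the largest difference of the 6, 0.55 ± 0.15 log2 units (SE), but missed the threshold (limma adjusted p = 0.0688). Its flox/flox values were 8.56, 9.09 and 9.10 and its Mx1Cre values 9.35, 9.64 and 9.41, without overlap and with flox/flox replicate 1 well below the rest. Mcm2, Mcm4 and Mcm7 differed by 0.41, 0.35 and 0.34 log2 units. Mcm6 had the smallest difference, 0.14 (95% interval -0.06 to 0.33). With flox/flox replicate 1 left out, Mcm5 differed by 0.37, Mcm2 by 0.25, Mcm4 by 0.22, Mcm7 by 0.30 and Mcm6 by 0.085. The subunits act in equal numbers in one ring, and with overlapping intervals no order among them is read.

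Of the 6 genes of helicase activation 3 rose. Mcm10, a scaffold that helps the loaded helicase to fire, read 7.41, 7.87 and 7.88 in flox/flox and 8.27, 8.63 and 8.35 in Mx1Cre. It rose 1.62-fold (0.70 ± 0.14 log2 units, SE, limma adjusted p = 0.0217), with all Mx1Cre values higher. Cdc45, which joins MCM and GINS to form the active helicase, read 7.95, 8.39 and 8.39 against 8.69, 8.83 and 8.81, a rise of 1.45-fold (limma adjusted p = 0.0403). Gins2 read 8.96, 9.49 and 9.57 against 9.89, 9.88 and 10.12, a rise of 1.54-fold (limma adjusted p = 0.0454). In all 3 genes flox/flox replicate 1 was the lowest array by a clear margin, and flox/flox replicates 2 and 3 lay close together. Without that array the differences were 0.54, 0.38 and 0.44 log2 units (limma adjusted p 0.0560, 0.0909 and 0.0866, spanning across settings 0.00770 to 0.148, 0.0199 to 0.190 and 0.0197 to 0.216). The other GINS subunits, which form one complex with Gins2, did not pass. Gins1 differed by 0.52 log2 units (limma adjusted p = 0.0984), Gins3 by 0.26 and Gins4 by 0.07 (95% interval -0.13 to 0.26). Leaving out flox/flox replicate 1 brought these to 0.33, 0.13 and 0.027 log2 units.

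**Figure D3:**
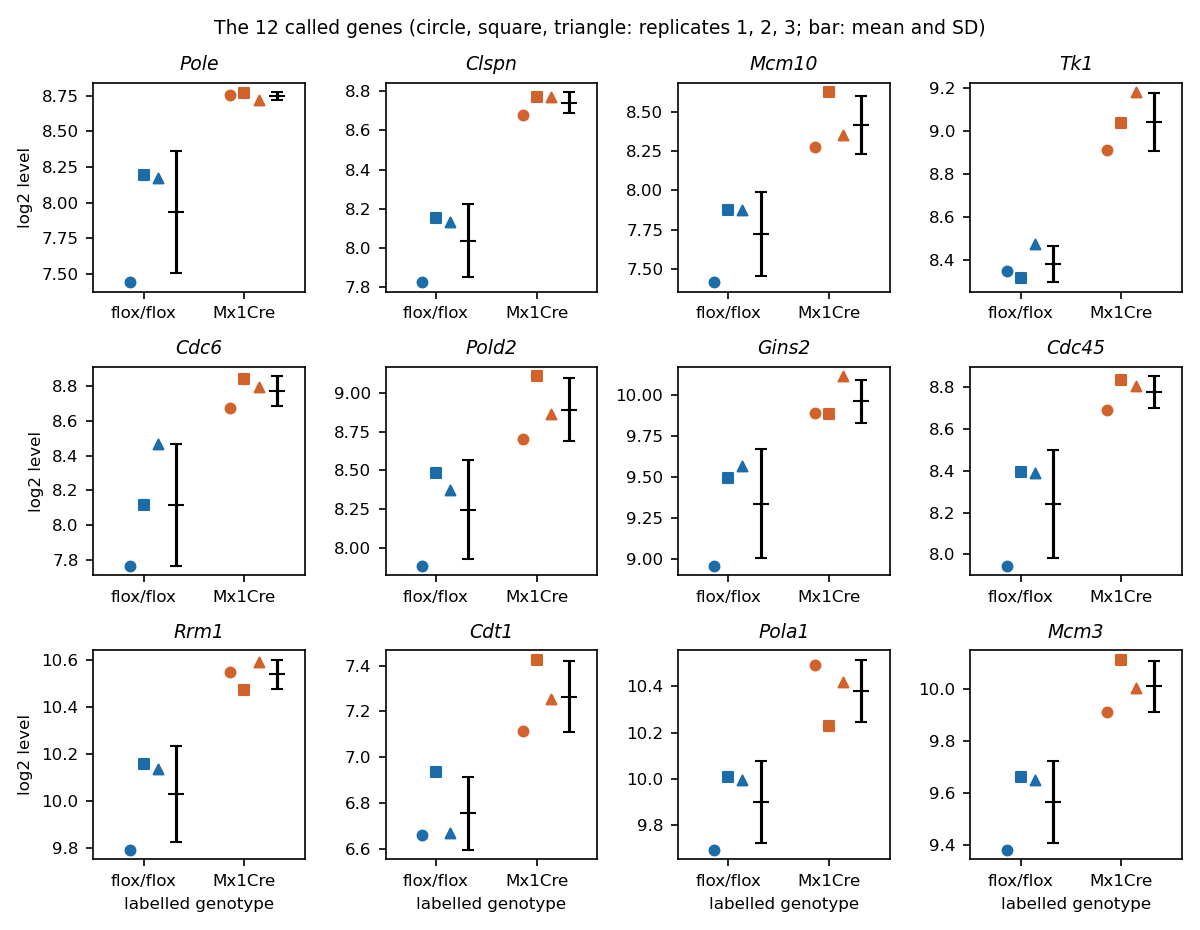
Each panel shows the log2 level of 1 of the 12 called genes on the 6 arrays, flox/flox in blue and Mx1Cre in orange, with replicates 1, 2 and 3 as circle, square and triangle, and the bar as mean and SD. The groups do not overlap in any panel, and the blue circle is the lowest point in each panel except Tk1, narrowly in Cdt1.

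All 8 polymerase and primase genes had a difference above 0, and Pole, Pola1 and Pold2 rose. These 3 belong to the 3 replicative polymerases: Pole encodes the catalytic subunit of the leading-strand polymerase ε, Pola1 that of polymerase α, which starts each strand with the primase, and Pold2 the accessory subunit of the lagging-strand polymerase δ. Pole read 7.44, 8.19 and 8.17 in flox/flox and 8.76, 8.77 and 8.72 in Mx1Cre. It had the largest difference of the 45 genes, 1.75-fold (0.81 ± 0.17 log2 units, SE, limma adjusted p = 0.0275). The SD was 0.025 among the 3 Mx1Cre arrays and 0.43 among the 3 flox/flox arrays, where replicate 1 lay far below the others. Without that array the Pole difference was 0.57 log2 units and was still called (limma adjusted p = 0.0140, spanning 0.0140 to 0.173 across settings).

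Pola1 read 9.69, 10.01 and 9.99 in flox/flox and 10.49, 10.23 and 10.42 in Mx1Cre, a rise of 1.39-fold (limma adjusted p = 0.0410). Pold2 read 7.88, 8.48 and 8.38 against 8.70, 9.11 and 8.86, a rise of 1.56-fold (limma adjusted p = 0.0482). Neither gene had overlapping groups, and neither was called without flox/flox replicate 1, where they differed by 0.38 and 0.46 log2 units (limma adjusted p 0.135 and 0.118, spanning across settings 0.0205 to 0.182 and 0.00866 to 0.225). Partner subunits were not called. Pola2 differed by 0.34 log2 units, the primase subunits Prim1 and Prim2 by 0.16 and 0.41, the catalytic polymerase δ subunit Pold1 by 0.31 and Pole2 by 0.18. These 5 differences were smaller without flox/flox replicate 1, 0.23 for Pola2, 0.052 for Prim1, 0.20 for Prim2, 0.18 for Pold1 and 0.069 for Pole2.

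The clamp and clamp loader held the genes that went furthest from the common pattern, and none of its 6 was called. Pcna, the sliding clamp that tethers polymerases to DNA, read 12.974, 13.072 and 12.998 in flox/flox and 13.178, 13.087 and 12.664 in Mx1Cre. The groups overlapped, because Mx1Cre replicate 3 was the lowest of the 6 arrays and Mx1Cre replicate 1 the highest, and the difference was -0.04 log2 units (95% interval -0.33 to 0.25), or -0.06 without flox/flox replicate 1. Its sign changed between alternatives, from -0.18 to 0.16, the upper end being the alternative that used a second Pcna probe set. That probe set read 12.24, 12.30 and 12.43 against 12.52, 12.43 and 12.51, a difference of 0.16 ± 0.09 log2 units (SE, limma adjusted p = 0.446). It did not show the low value of Mx1Cre replicate 3. The annotation gives both probe sets the same transcripts, and the reference gene table lists 2 Pcna pseudogenes, so which copies each reads is uncertain.

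Rfc2, a small subunit of the clamp loader, was the only gene beside Pcna with a lower mean in Mx1Cre. It read 10.17, 10.32 and 10.29 in flox/flox and 10.01, 10.23 and 10.23 in Mx1Cre, with overlap and a difference of -0.10 log2 units (95% interval -0.32 to 0.11), or -0.15 without flox/flox replicate 1. Its partners in the same complex had differences above 0 without overlap between groups. Rfc1, the large subunit, read 9.51, 9.78 and 9.71 against 9.95, 10.04 and 10.16 and differed by 0.39 ± 0.10 log2 units (SE, limma adjusted p = 0.0640). Rfc4, Rfc3 and Rfc5 differed by 0.52, 0.28 and 0.27 log2 units. With that array left out Rfc1 and Rfc4 each differed by 0.31, Rfc3 by 0.21 and Rfc5 by 0.19.

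Of the 3 subunits of replication protein A, which coats single-stranded DNA, Rpa1 and Rpa2 had groups that did not overlap and Rpa3 did not differ beyond its spread. Rpa1 read 7.90, 8.45 and 8.47 in flox/flox and 8.72, 8.80 and 8.79 in Mx1Cre, a difference of 0.50 ± 0.14 log2 units (SE, limma adjusted p = 0.0859). Rpa2 differed by 0.44 log2 units. Rpa3 differed by 0.04 (95% interval -0.16 to 0.25), and by 0.11 on its second probe set. The differences of Rpa1, Rpa2 and Rpa3 without flox/flox replicate 1 were 0.31, 0.28 and -0.006. Of the genes that finish Okazaki fragments, the ligase gene Lig1 read 8.69, 9.26 and 9.28 against 9.47, 9.78 and 9.61 (0.54 ± 0.16 log2 units, SE, limma adjusted p = 0.0873), with no overlap. The flap nuclease gene Fen1 differed by 0.33 log2 units, with overlap, since flox/flox replicate 2 exceeded Mx1Cre replicate 1. With flox/flox replicate 1 left out Lig1 differed by 0.35 and Fen1 by 0.19.

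Tk1 was the steadiest of the nucleotide synthesis genes and the only one of the 45 called under each of the 15 alternatives run. It encodes the S-phase thymidine kinase of the salvage pathway. It read 8.35, 8.32 and 8.47 in flox/flox (8.38 ± 0.083, SD, n = 3) and 8.91, 9.04 and 9.18 in Mx1Cre (9.04 ± 0.13, SD, n = 3). The rise was 1.58-fold (0.66 ± 0.10 log2 units, SE, limma adjusted p = 0.00388), several times the spread within either group. Its second probe set read 8.04, 8.11 and 7.98 against 8.58, 8.38 and 8.67, a rise of 1.41-fold (limma adjusted p = 0.0188). In the fit over all probe sets this second probe set was not called (limma adjusted p = 0.109). The adjusted p of Tk1 ran from 0.00115 to 0.0473 over the alternatives, and flox/flox replicate 1 was not its lowest array.

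Rrm1, the large subunit of ribonucleotide reductase, also rose. It read 9.79, 10.16 and 10.14 in flox/flox and 10.55, 10.47 and 10.60 in Mx1Cre, a rise of 1.42-fold (limma adjusted p = 0.0295) without overlap. Without flox/flox replicate 1 the Rrm1 difference was 0.39 log2 units (limma adjusted p = 0.0821, spanning 0.0129 to 0.152 across settings). Its partner Rrm2, the subunit whose level is tied to S phase, differed by 0.49 log2 units, and by 0.27 without flox/flox replicate 1. Its flox/flox values of 8.99, 9.82 and 9.49 had an SD of 0.42, and it did not pass (limma adjusted p = 0.173). The thymidylate synthase gene Tyms and the dUTPase gene Dut differed by 0.24 and 0.30 log2 units, or by 0.15 and 0.14 without that array. The Tk1 difference without it was 0.65.

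Among the 3 fork protection genes Clspn rose and its neighbours at the fork did not pass. Clspn encodes claspin, which links a stalled fork to the Chk1 checkpoint kinase. It read 7.83, 8.15 and 8.13 in flox/flox and 8.68, 8.77 and 8.77 in Mx1Cre, with the lowest Mx1Cre value above every flox/flox value. The rise was 1.63-fold (0.70 ± 0.11 log2 units, SE, limma adjusted p = 0.00421), and 0.60 log2 units without flox/flox replicate 1 (limma adjusted p = 0.0117, spanning 0.00166 to 0.0523 across settings). Timeless and Tipin, which form one complex that travels with the fork, differed by 0.38 and 0.23 log2 units, and by 0.32 and 0.12 without that array. In chromatin assembly factor 1, which places histones on new DNA, Chaf1a read 8.37, 8.75 and 8.96 against 9.04, 9.23 and 9.18 (0.46 ± 0.14 log2 units, SE, limma adjusted p = 0.109). Its partner Chaf1b read 8.13, 8.31 and 8.57 against 8.40, 8.36 and 8.43, with overlap (0.06 log2 units, 95% interval -0.19 to 0.31). Chaf1a differed by 0.30 and Chaf1b by -0.04 without flox/flox replicate 1.

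**Figure D4:**
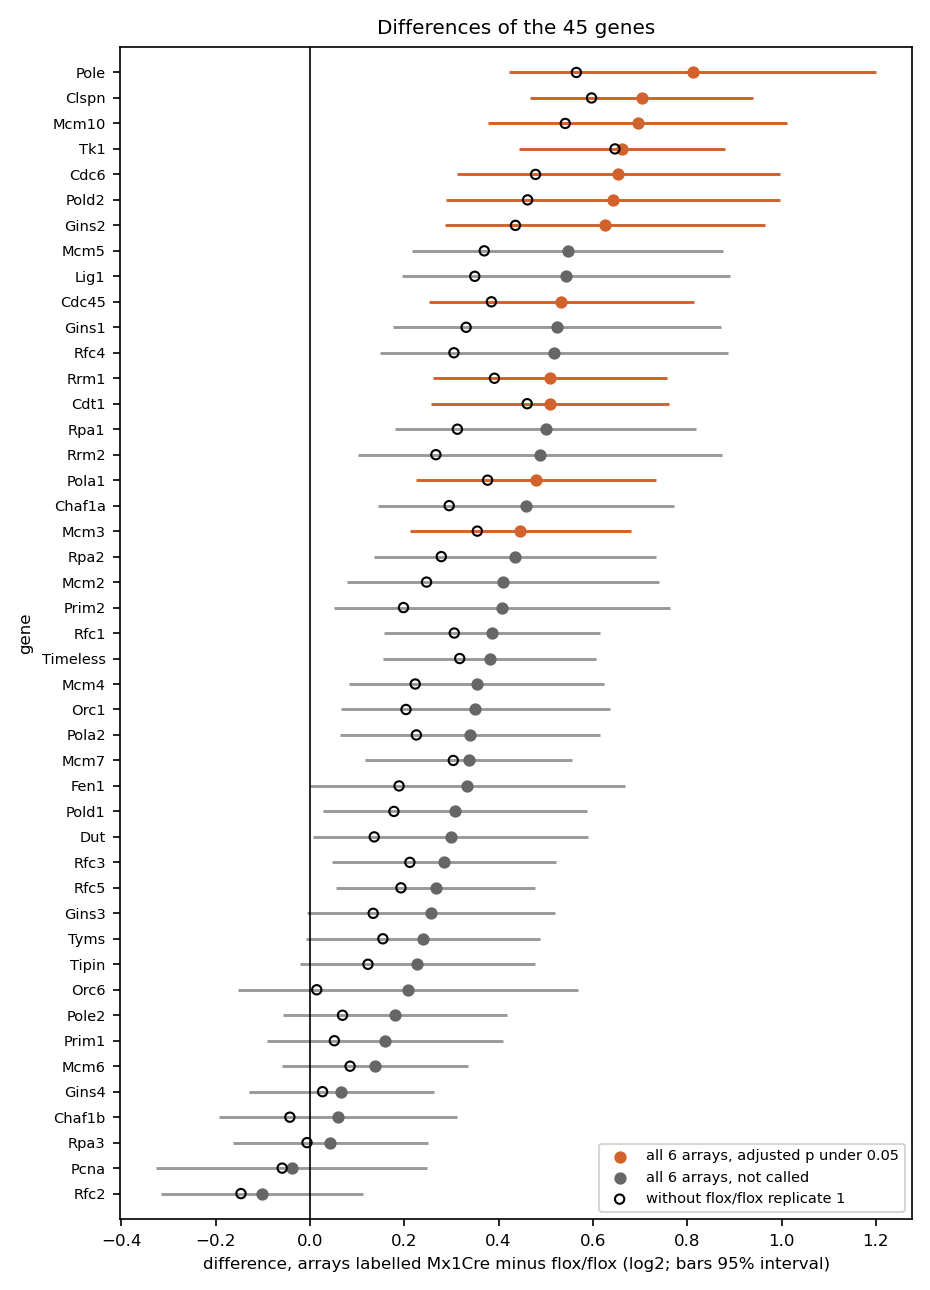
Points give the difference of each of the 45 genes, Mx1Cre minus flox/flox in log2 units, with 95% intervals; filled orange points are called and open circles leave out flox/flox replicate 1. The points run from -0.10 for Rfc2 to 0.81 for Pole, and leaving the array out moves the median from 0.39 to 0.27.

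Small differences were spread over the complexes. The 8 genes with a difference under 0.2 log2 units were Rfc2, Pcna, Rpa3, Chaf1b, Gins4, Mcm6, Prim1 and Pole2, a set picked out by those values. Each except Pcna, a ring of identical subunits, has a partner in its complex whose groups did not overlap. Groups did not overlap for 71.1% of the 45 genes, Mcm6 and Pole2 among them, so such a partner was likely for any gene. The sign of Pcna, Rpa3 and Chaf1b changed between alternatives, and the other 42 genes kept theirs. Even the dimmest of the 45 by mean level, Cdt1 at 7.01, lay above the median over genes of 6.64. Most of the 8 were bright. By percentile of mean level over all genes, Pcna stood at 99.9, Mcm6 at 97.9 and Prim1 at 95.6. Gins4 stood at 95.2, Rfc2 at 94.5, Rpa3 at 93.0, Pole2 at 87.2 and Chaf1b at 78.9. Pole, Clspn and Mcm10, with the largest differences, stood at 78.6, 79.2 and 75.0. The called genes Rrm1 and Pola1 stood at 94.8 and 94.1. Whether the size of a difference depends on the level was not tested.

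Other genes of the pathway, from lists that do not include the 45, had median differences above 0 as well. The lists were also chosen with earlier results of these data known. For comparison with these and the following lists, 2.63% of all genes rose and 2.28% fell. Without flox/flox replicate 1, 1.49% of all genes rose. Of 28 further replication factors 5 rose and 0 fell, with a median difference of 0.25 log2 units. They included Dna2, a nuclease and helicase that trims flaps (0.65 ± 0.10 log2 units, SE, limma adjusted p = 0.00457), the MCM relative Mcm8 (0.57) and Cdc7, the kinase that triggers origin firing (0.45). Of 28 measured enzymes of nucleotide and one-carbon metabolism 7 rose and 0 fell, with a median of 0.26. Shmt2, the mitochondrial enzyme that draws one-carbon units from serine, rose 1.84-fold (limma adjusted p = 0.00266), Atic, which completes purine synthesis, 1.57-fold, and Cad, which starts pyrimidine synthesis, 1.56-fold. Without flox/flox replicate 1 each of these lists had 2 genes that rose.

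The transcription factors and cell cycle switches that act on these genes were mixed. Of 15 E2F and pocket protein genes 2 rose and 2 fell. E2f8, which represses E2F targets, rose by 0.57 log2 units and E2f1, an activator, by 0.37, while Rbl2, the pocket protein p130 of resting cells, fell by 0.47 and Tfdp2, an E2F partner, fell by 0.38. Of 10 measured S phase entry genes the cyclin gene Ccne2 rose by 0.44 and the inhibitor gene Cdkn1b fell by 0.45. Without flox/flox replicate 1 limma called 0 of these 6. Their limma unadjusted p stayed under 0.05, but they were picked as called with that array included, so this is no independent check. Of 13 checkpoint and repair genes Exo1, a nuclease, and Brca2 rose (0.79 and 0.48) and 0 fell, and 1 rose without that array.

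Mitosis genes showed the low value of flox/flox replicate 1 in every one of 19 genes measured. Of these 4 rose, 0 fell and the median difference was 0.60 log2 units, with 3 rising and a median of 0.34 without that array. The kinase gene Ttk, the kinesin gene Kif23 and the kinase gene Aurkb rose 1.90-fold, 1.81-fold and 1.78-fold. The mean level of the list was 8.29, 9.11 and 8.96 in flox/flox and 9.39, 9.29 and 9.33 in Mx1Cre. For the 45 replication and nucleotide genes the corresponding levels were 8.76, 9.14 and 9.12 against 9.31, 9.46 and 9.40. In both lists flox/flox replicate 1 is the lowest array and the groups do not overlap.

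**Figure D5:**
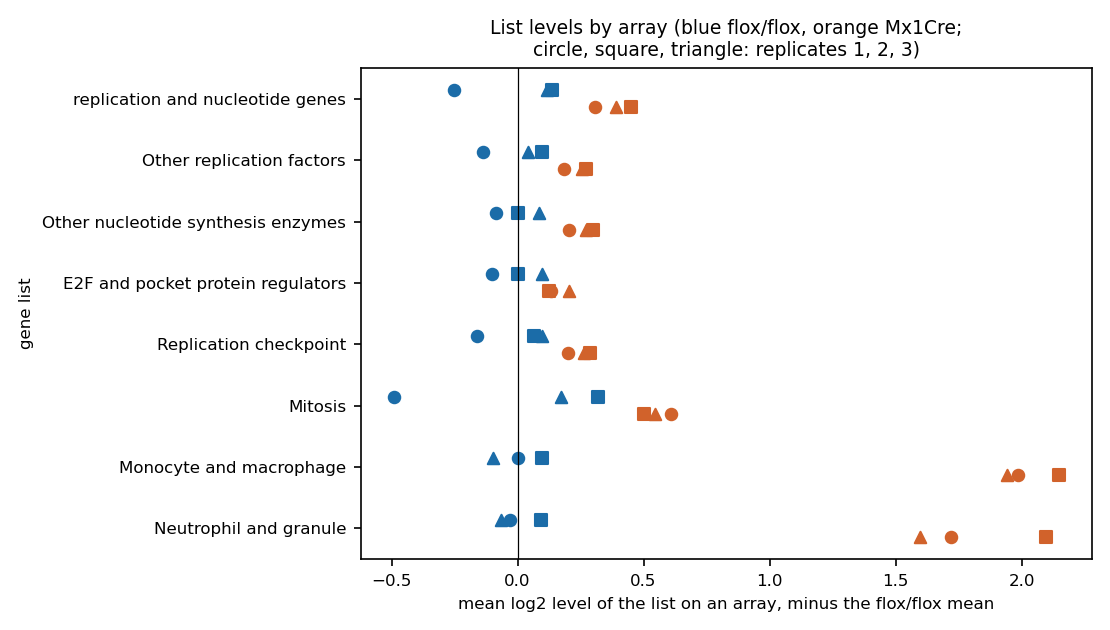
Each row is a gene list, and each point the mean log2 level of its genes on 1 array minus the flox/flox mean (blue flox/flox, orange Mx1Cre; circle, square and triangle are replicates 1, 2 and 3). The circle of flox/flox replicate 1 lies to the left in the replication and mitosis lists but not in the monocyte and neutrophil lists.

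Markers of other blood cell types moved with the same comparison. All 10 monocyte and macrophage markers rose, led by Ly86 (3.83 log2 units), and their mean level was 6.40 to 6.60 in flox/flox and 8.44 to 8.65 in Mx1Cre. Of 10 neutrophil and granule markers 8 rose, led by Ctsg (3.54), with mean levels of 6.89 to 7.05 and 8.56 to 9.05. Of 7 measured erythroid markers 2 fell (largest difference -1.03 log2 units, Car2), with mean levels of 8.70 to 8.98 and 8.19 to 8.47. Of 5 measured megakaryocyte markers 1 fell (Ppbp, -1.32), with mean levels of 7.25 to 7.31 and 6.73 to 6.85. Of 10 T and NK cell markers 2 fell (largest difference -4.45, Gzmb), with mean levels of 6.47 to 6.56 and 5.58 to 5.90. Their median difference was only -0.06 log2 units. Of 8 measured B lymphoid markers 1 fell (Il7r, -1.13), with mean levels of 6.34 to 6.45 and 6.05 to 6.22 and a median difference of -0.09. Of 8 mast cell and basophil markers 2 rose (largest difference 2.77, Mcpt8) and 2 fell, with 7.25 to 7.33 and 7.31 to 7.62. RMA values have no true 0, so no marker can be called absent. The part of these cell types in the differences of the replication genes was not tested.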

How the data were processed

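Each of the 6 samples was hybridised to 1 Affymetrix array, and the design text names 3 mice per genotype. The authors deposited log2 values per probe set, made with RMA and affy per the submitters' processing notes. No version or chip definition was found in the labels. Of 34760 probe sets 21640 carried 1 gene symbol, 1321 several and 11799 none here, in a platform annotation that can be old. The probe set with the highest mean stood for a gene, which gave 19937 genes.

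Differences were tested over all genes with limma 3.58.1 in R 4.3.3 (lmFit, eBayes) and Benjamini-Hochberg adjustment. On simulated data over 19937 genes the test called 34.3% of 67 genes shifted by 0.5 log2 units. At a shift of 1 it called 86.6% of 67 genes, and at a shift of 2 98.5% of 66. The simulated data gave 149 calls, where the real data gave 979. For the genes described here the median SD was 0.22 in flox/flox, against 0.11 over all genes. In Mx1Cre it was 0.10 against 0.12. Whether the simulated rates hold for the genes described was not tested. With 3 mice a group, precision is set by the array number. The genes and lists were chosen with earlier results of these data known, so counts and medians stand without a list test. Full values are given for called genes, the gene of smallest p in each role and genes lower in Mx1Cre. Of the other pathway lists up to 3 called genes in each direction are named, and of each marker list the largest difference. Promoter windows are RefSeq's. The alternatives were a replicate block, leaving out each array, 2 scalings, a filter on dim genes, other probe set rules, another prior, array weights, a fit over all probe sets and a looser threshold. Using the dimmer probe set of Pcna, Rpa3 and Tk1, and list counts without flox/flox replicate 1, were added after seeing the data.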

Additional observations from a re-analysis of the deposited data

How the results depend on the processing

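The 12 called genes became 2 to 10 when 1 array was left out, 5 with arrays centred on their medians, 1 with the fit over all probe sets, 19 with a replicate block and 19 at an adjusted p under 0.1 (limma). None of the 45 was called lower in any setting. Over all genes 2.63% rose in the fit that gave 12 called genes. That share was 3.02% with a replicate block and 2.14% without flox/flox replicate 2. The median difference of 0.39 log2 units ran from 0.27 to 0.46 without 1 array. Cyclic loess, the dim-gene filter, the mean of probe sets, the robust prior, array weights and the dimmer probe sets gave 12 to 16 called genes. Of the 45, 1 was called in every alternative and 23 in none. The cause of these shifts was not tested. Leaving out an array also lowers the number of samples. The fit over all probe sets adjusts over 34760 probe sets and also gives each gene another SE. Residuals of same-numbered arrays correlated across all genes at 0.19, 0.05 and 0.17, so the numbers were not taken as pairs. Within the 45 genes, however, replicate 1 lay low in both groups. Of the 45, 0 were above their group mean on flox/flox replicate 1 and 8 on Mx1Cre replicate 1. The median deviation from the group mean was -0.25 log2 units on the former and -0.10 on the latter. For the mitosis genes Mx1Cre replicate 1 was instead the highest array, in 13 of 19 genes. What same-numbered arrays share was not tested.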
